A study of Rattus norvegicus with 6 samples.

Results

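The polo-like kinases are serine/threonine kinases that carry a kinase domain followed by polo boxes, the modules that dock them onto substrates. The 4 members described here, Plk1, Plk2, Plk3 and Plk4, were taken as the rows with these symbols among the 18930 genes of the deposited count table, and all 4 passed the filter on low counts that left 11870 genes. The members were chosen with their response in these samples in view, as Plk2 and Plk3, which are known targets of p53, against the mitotic Plk1 and Plk4. Their STZ to Control differences are therefore given as a description, without a test. The samples were NRK-52E cells, an established line of epithelial cells from normal rat kidney with a wild-type genotype, and every library came from this line. Vehicle-treated cells made up the Control group (3 samples), and the STZ group (3 samples) was kept for 24 h in 10 mM of streptozotocin, a DNA-alkylating nitrosourea. RNA was sequenced in bulk, and the labels do not say whether the replicates were separate cultures, so the errors are the spread between these samples.

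In dividing cells Plk1 drives entry into mitosis, spindle assembly and cytokinesis, and Plk4 starts the duplication of centrioles. Transcripts of both peak late in the cell cycle, and Plk1 is repressed through p53 and p21 by way of the DREAM complex, which binds an element called the CHR. Plk2 and Plk3 were first found as immediate-early genes switched on by serum or growth factors, and both respond to DNA damage. Plk5, the remaining family member, lacks a full kinase domain in humans and is best known from the nervous system.

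The starts of the 4 genes were compared first, because Plk1 and Plk4 stood lower and Plk2 and Plk3 higher after STZ. RefSeq sequences of the GRCr8 build were found for 4 of the 4 members by symbol. Each is printed from 150 bases before to 30 bases after the annotated start of transcription, read 5′ to 3′ on the strand of the gene. Capitals mark the letters searched for, on either strand, namely the CHR (TTTGAA), the CCAAT box (CCAAT), the cyclic AMP response element or CRE (TGACGTCA), its core (TGACG), and an E2F core (GCGGGAA). The core lies inside the full CRE, so the full CRE also counts as a match to the core.
Plk1, chr1:186147508-186147687, + strand: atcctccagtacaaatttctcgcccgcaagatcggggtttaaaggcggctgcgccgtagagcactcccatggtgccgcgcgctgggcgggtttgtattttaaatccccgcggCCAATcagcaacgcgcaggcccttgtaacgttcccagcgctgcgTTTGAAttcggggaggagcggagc
Plk4, chr2:125730330-125730509, + strand: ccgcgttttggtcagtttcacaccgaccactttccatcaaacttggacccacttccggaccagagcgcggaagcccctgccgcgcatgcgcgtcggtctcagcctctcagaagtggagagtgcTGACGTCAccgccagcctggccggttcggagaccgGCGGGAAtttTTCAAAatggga
Plk2, chr2:43702386-43702565, + strand: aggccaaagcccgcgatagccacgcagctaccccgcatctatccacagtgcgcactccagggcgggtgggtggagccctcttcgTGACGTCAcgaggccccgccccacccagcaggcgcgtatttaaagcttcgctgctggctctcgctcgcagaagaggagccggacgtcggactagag
Plk3, chr5:135848871-135849050, - strand: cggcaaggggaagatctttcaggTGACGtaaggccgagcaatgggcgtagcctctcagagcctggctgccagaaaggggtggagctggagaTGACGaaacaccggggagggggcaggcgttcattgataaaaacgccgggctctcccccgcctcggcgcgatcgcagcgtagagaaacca

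Plk1 and Plk4 each held 1 CHR match just after the start, at bases 7 to 12 of the Plk1 transcript and, on the opposite strand, at bases 19 to 24 of the Plk4 transcript. Neither Plk2 nor Plk3 had these letters anywhere in the 300 bases searched, which run from 250 before to 50 after the start. The CHR letters were present in 18.3% of all 33469 rat promoters of the same length, and in 11.7% of the 9779 promoters matched to genes tested here, so a match on its own is common. In Plk4 the CHR lay close to an E2F core at bases 9 to 15, a sequence found in 4.21% of all promoters and 8.38% of those of tested genes. In Plk1 a CCAAT box lay 38 to 34 bases before the start, and Plk2 had 1 on the opposite strand at bases 44 to 48, outside the stretch printed. The CCAAT letters occurred in 37.5% of promoters. The full CRE, present in 1.83% of all promoters and 3.13% of those of tested genes, was found in Plk2, 66 to 59 bases before the start, and in Plk4, 27 to 20 bases before it. Plk3 had only the core, at 127 to 123 and at 59 to 55 bases before the start, and the core occurred in 21.2% of all promoters and 31.8% of those of tested genes. The consensus for a single p53 decamer, found in 7.98% of promoters, and the CArG box of serum response factor, found in 1.64%, had no match in any of the 4 windows. These matches describe letters only, and binding was not measured. Only exact matches inside the windows were sought, so sites with a mismatch or elsewhere in the genes were not covered.

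**Figure D1:**
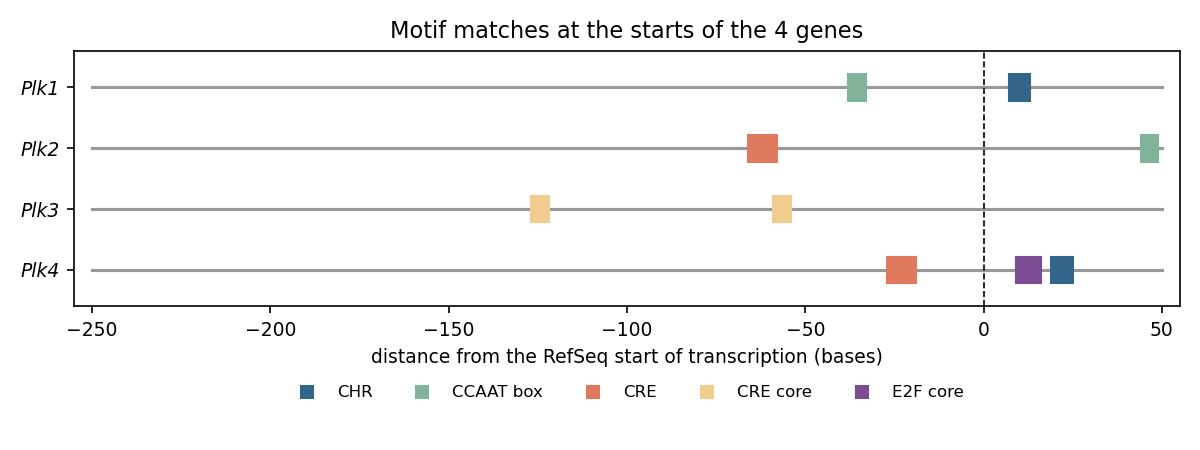
Motif matches in the 4 polo-like kinase promoters, by distance in bases from the RefSeq start of transcription (dashed line), with 1 horizontal line per gene and coloured blocks for matches on either strand; a CRE core inside a full CRE is not drawn again. CHR blocks lie just after the start in Plk1 and Plk4, and CRE blocks lie before it in Plk2 and Plk4.

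Total counts ranged from 10430924 to 12737131 in Control and from 11658253 to 15191349 in STZ, and TMM library factors from 0.988 to 1.02. The epithelial keratin Krt8 had at least 11691 reads in every sample, while Krt18 had at most 3 and the proximal tubule transporters Slc34a1, Slc5a2 and Slc2a2 at most 7, so defining markers of mature proximal tubule were near 0, although the water channel Aqp1 had 66 to 167. Of 6 fibroblast genes sought, 5 had a row in the table, and of these Col1a1 (307 to 414 reads) and Postn (32 to 60 reads) were the ones above 10 reads in every sample, and the summed fibroblast level was at most 36.5 CPM (counts scaled by library total) in Control and between 23.7 and 32.6 CPM in STZ. The 4 endothelial genes stayed at or below 9 reads. Of 4 immune genes sought, 3 had a row. Ptprc had at most 1 read and Cd3e at most 4, while Cd68 had 7 to 23 reads in Control and 21 to 29 in STZ. Whether the fibroblast and immune genes had a part in the results was not tested. In bulk RNA, fewer cells with a transcript and less of it per cell cannot be told apart, and this holds for each member below.

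Plk2, a kinase induced by serum and by DNA damage, was the member with the largest difference. Replicates 1, 2 and 3 of the Control group had 697, 754 and 703 normalized counts, that is, counts rescaled by edgeR's TMM factors to a common library size. Those of the STZ group had 2279, 2414 and 2485. The groups stood far apart, and the lowest STZ sample was 3.02 times the highest Control sample. The means were 718 ± 31.3 in Control and 2393 ± 105 in STZ (SD, n = 3 each), a 3.33-fold higher level in STZ with a log2 fold change of 1.74 (standard error 0.05). By log2 fold change Plk2 ranked 74 from the top among the 11870 genes.

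Plk3, a stress-responsive kinase linked to DNA damage and hypoxia signalling, also stood higher in STZ but by less. Its normalized counts were 154, 181 and 161 in Control and 306, 322 and 319 in STZ. All 3 STZ samples lay above all 3 Control samples, the nearest pair differing 1.69-fold. The mean went from 165 ± 14.2 to 316 ± 8.70 (SD, n = 3 each), 1.91-fold, and the log2 fold change of 0.93 (standard error 0.09) placed it just under the study's fold threshold of 1 on the log2 scale. It ranked 318 from the top. Plk3 rested on the fewest reads of the 4 members, 131 to 166 per Control library and 298 to 384 per STZ library, and its Control samples had the widest relative spread, 8.57% of the mean against 1.11% for Plk1.

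Plk1, the central mitotic kinase, was lower in STZ. Its normalized counts were 2048, 2093 and 2063 in Control and 1479, 1526 and 1557 in STZ. The samples of each group were tightly bunched and did not overlap with the other group, the lowest Control sample being 1.31 times the highest STZ sample. The mean of 1521 ± 39.2 in STZ was 26.4% under the 2068 ± 23.0 in Control by the fitted fold change (SD, n = 3 each). The log2 fold change was -0.44 (standard error 0.04), which ranked 992 from the bottom.

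Plk4, the trigger of centriole duplication, was lower by nearly the same factor. Normalized counts were 1249, 1318 and 1307 in Control and 969, 926 and 1007 in STZ. Every STZ sample lay under every Control sample, with a ratio of 1.24 between the lowest Control and the highest STZ sample. The mean was 1291 ± 37.3 in Control and 967 ± 40.5 in STZ (SD, n = 3 each). The log2 fold change was -0.41 (standard error 0.05), the Control level being 1.33 times the STZ level, and the rank from the bottom was 1107.

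Across all genes tested, groups did not overlap with STZ above in 28.6% and with STZ below in 27.7% (56.3% in either direction), and the 4 members were chosen on this contrast, so nothing is read from their lack of overlap. Spans in GRCr8 showed an overlap on the opposite strand of Plk1 with Ern2 over 4523 bases, and of Plk3 with Dynlt4 over 83 bases. Ern2 had no row under this symbol among the counts, so its reads cannot be set beside those of Plk1. Dynlt4 had 1 to 5 reads in any sample, against at least 131 for Plk3. Plk2 and Plk4 overlapped no annotated gene. The library kit keeps the strand of the RNA, but whether featureCounts used the strand is not given in the sources used here.

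**Figure D2:**
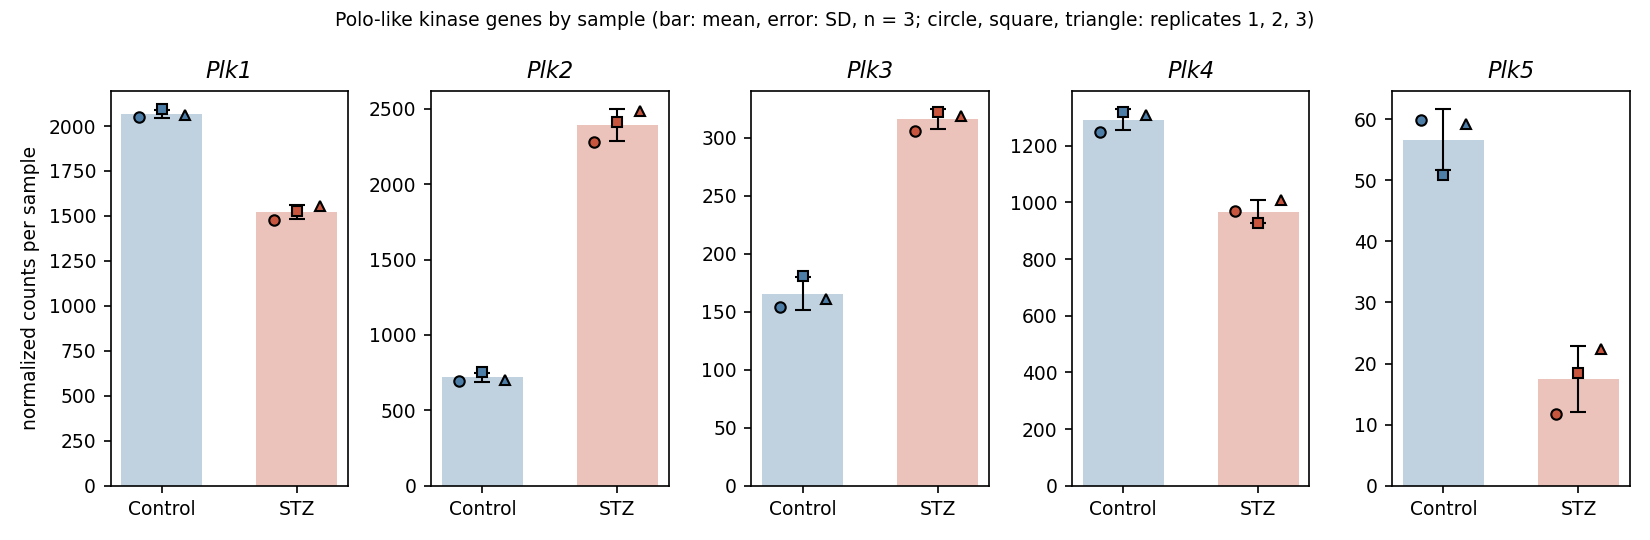
Normalized counts (vertical axis, starting at 0) of Plk1 to Plk5 in the 3 Control and 3 STZ samples, with bars for the mean, error bars for the SD and a symbol per replicate. Plk2 and Plk3 stand higher and Plk1, Plk4 and Plk5 lower in STZ, with no overlap between groups in any of the 5 panels.

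Plk5 was not among the members and its direction was not used to choose them, so it was tested. It had 59.8, 50.9 and 59.2 normalized counts in Control and 11.8, 18.4 and 22.4 in STZ. The lowest Control sample was 2.27 times the highest STZ sample. The means were 56.7 ± 4.97 and 17.5 ± 5.38 (SD, n = 3 each), and Plk5 fell by 1.68 on the log2 scale (standard error 0.24, adjusted p = 8.76e-08 by the quasi-likelihood (QL) test of edgeR, Benjamini-Hochberg corrected). Its log2 fold change ranked 16 from the bottom of the 11870 genes. The value rests on 45 to 61 reads per Control library and 13 to 27 per STZ library.

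**Figure D3:**
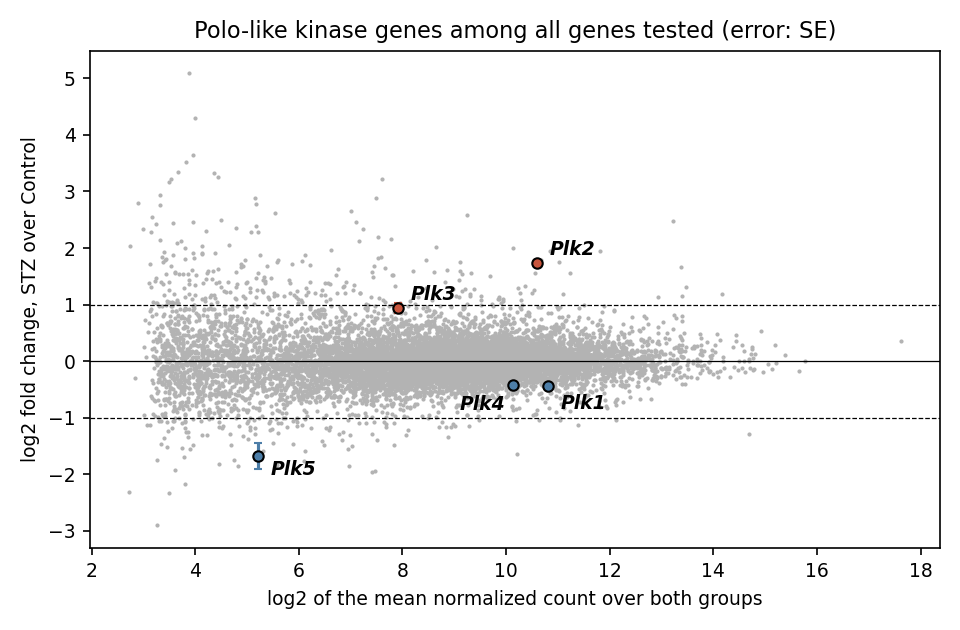
Log2 fold change (STZ over Control, vertical axis) against the log2 of the mean normalized count for all 11870 genes tested (grey), with Plk1 to Plk5 marked and error bars for the standard error; dashed lines mark a log2 fold change of 1 in either direction. Plk2 (1.74) lies above the upper line, Plk3 (0.93) just under it, Plk1 (-0.44) and Plk4 (-0.41) close together below 0, and Plk5 (-1.68) under the lower line at a low count.

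The make-up of the family's reads changed with treatment. Plk1 gave 48.2% to 49.4% of the reads of the 4 genes in Control and 29.3% ± 0.226 in STZ (mean and SD, n = 3). Plk2 gave 16.6% to 17.3% in Control and 45.3% to 46.5% in STZ. Plk4 went from between 30.1% and 30.9% to between 17.8% and 19.3%, and Plk3 from between 3.71% and 4.17% to between 5.94% and 6.21%. Shares depend on transcript length as well as level, so they are compared here between samples and not between genes. Transcript lengths were not used here, and the 4 levels were not put in order.

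Ratios of reads within a library do not depend on how libraries are scaled. The ratio of Plk2 to Plk1 reads was 0.340, 0.360 and 0.341 in the Control samples and 1.54, 1.58 and 1.60 in the STZ samples, a 4.53-fold difference. The ratio of Plk3 to Plk4 reads was 0.128 ± 0.00824 in Control and 0.327 ± 0.0184 in STZ (SD, n = 3 each), a 2.56-fold difference. Within the pair that stood higher, Plk2 to Plk3 reads went from 4.35 ± 0.186 to 7.58 ± 0.186, so the response of Plk2 exceeded that of Plk3 by 0.80 on the log2 scale. Within the pair that stood lower, Plk1 to Plk4 reads were 1.60 ± 0.0334 in Control and 1.57 ± 0.0652 in STZ, a difference smaller than the spread between replicates. Summed over the 4 genes, the level was 341 ± 7.99 counts per 1000000 TMM-scaled counts in Control and 417 ± 13.4 in STZ (SD, n = 3 each).

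**Figure D4:**
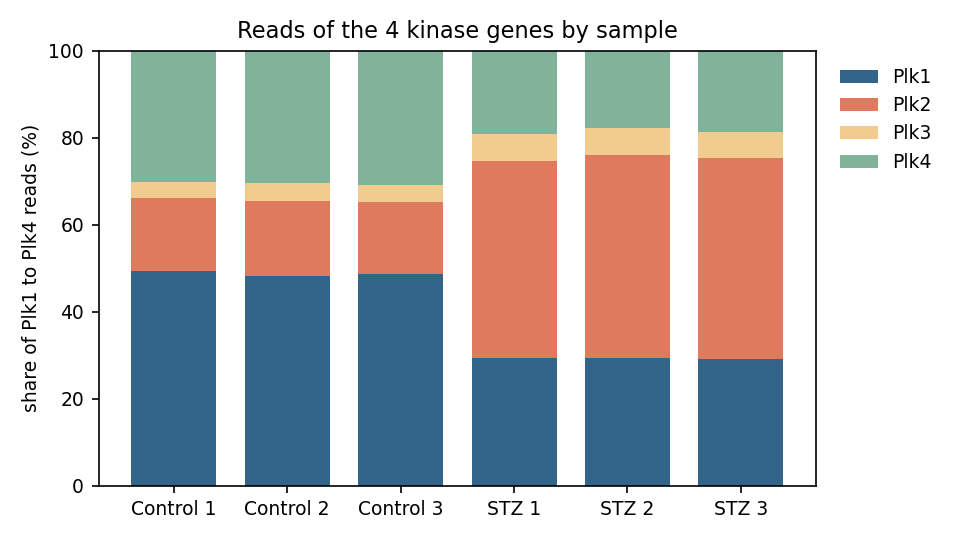
Share of the reads of Plk1, Plk2, Plk3 and Plk4 taken by each gene (stacked, in percent) in each of the 6 samples. Plk2 takes 16.6% to 17.3% in Control and 45.3% to 46.5% in STZ, while the shares of Plk1 and Plk4 shrink.

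Genes around the kinases were described from 6 lists, 126 genes in all, of which 119 passed the filter. A list gene was called higher or lower at an adjusted p-value under 0.05 in the same QL test, corrected over all 11870 genes. This call was met by 50.9% of all genes tested, 25.9% higher and 25.1% lower, with a median log2 fold change of -0.01 over all genes. Adding the fold threshold of 1 on the log2 scale left 3.37% of genes.

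The list of Plk1 activation and transcription holds the kinases and cyclins that switch Plk1 on, the DREAM and MuvB subunits that control its promoter, and factors that oppose it. Of 16 genes tested, 7 were lower (43.8%, against 25.1% of all genes), 5 were higher (31.2%, against 25.9%) and 4 did not pass. The median was -0.10, none passed the fold threshold, and 3 were higher when Control replicate 2 was left out. Ccna2, the cyclin that with a partner kinase starts Plk1 activation, fell by 0.52 on the log2 scale, from 2367 ± 53.1 to 1653 ± 71.0 normalized counts (SD, n = 3 each). Bora, the cofactor through which Aurora A phosphorylates Plk1, fell by 0.40, and the DREAM pocket protein Rbl2 (p130) fell by 0.43. The MuvB subunits Lin37 and Lin52 rose, with log2 fold changes of 0.40 and 0.27, and so did Mybl2 (B-Myb), the activator that replaces the repressive partners of MuvB, with 0.27. Aurka, the kinase that works with Bora, and Cdk1 were looked up after their values were seen. Their log2 fold changes were 0.14 (adjusted p = 0.0168, edgeR QL test) and -0.05 (adjusted p = 0.296, edgeR QL test). Plk1 itself, chosen with its response in view, lay lower than all but Ccna2 in this list.

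Of 27 substrates and partners of Plk1 tested, 17 were lower (63.0% of the list, against 25.1% of all genes) and 6 higher (22.2%, against 25.9%), and the median was -0.18. Racgap1, the centralspindlin subunit that Plk1 phosphorylates for cytokinesis, went from 2422 ± 28.5 to 1582 ± 24.9 normalized counts (SD, n = 3 each), a fall of 0.61 on the log2 scale (standard error 0.04). Bub1b, the checkpoint kinase BubR1, fell by 0.56, and Kiz, which stabilizes spindle poles, fell by 0.55. The largest rise was that of Gtse1, a G2 and mitosis protein that restrains p53, with 2624 ± 131 normalized counts in Control and 4782 ± 32.9 in STZ (SD, n = 3 each) and a log2 fold change of 0.86. Cdc25c, the phosphatase that activates Cdk1, rose by 0.45 and Ninl, a centrosomal protein, by 0.29. No gene of this list passed the fold threshold.

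The list of Plk4 and centriole duplication was mostly lower. Of 25 genes, all of them tested, 16 were lower (64.0%, against 25.1% of all genes) and 2 higher (8%, against 25.9%). The median was -0.23, and none passed the fold threshold. Poc1b, a centriole wall protein, fell by 0.87 on the log2 scale, from 234 ± 29.9 to 127 ± 9.10 normalized counts (SD, n = 3 each). Cntrob, a protein of daughter centrioles, fell by 0.63. Cep152, the scaffold that recruits Plk4 to the mother centriole, went from 318 ± 2.26 to 215 ± 3.85 normalized counts (SD, n = 3 each) and fell by 0.57. The 2 that rose were Btrc, a subunit of the ubiquitin ligase that degrades Plk4, with a log2 fold change of 0.25, and Cenpj (CPAP), which elongates centrioles, with 0.20. Stil and Sass6, the direct partners of Plk4 in building the cartwheel, were named after their values were seen. Their log2 fold changes were 0.02 (adjusted p = 0.771, edgeR QL test) and -0.07 (adjusted p = 0.413, edgeR QL test).

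Partners and substrates of Plk2 and Plk3 were mixed. Of 15 tested, 7 were higher (46.7%, against 25.9%) and 4 lower (26.7%, against 25.1%), the median was 0.09, and none passed the fold threshold. Fbxw7, a ubiquitin ligase subunit that Plk2 phosphorylates, had the largest rise, from 128 ± 16.5 to 210.4 ± 3.59 normalized counts (SD, n = 3 each) and a log2 fold change of 0.71. Cdc25c, which is also a Plk3 substrate, rose by 0.45 and Jun, a transcription factor linked to Plk3 in stress, by 0.45. Chek2, the checkpoint kinase that acts with Plk3 after DNA damage, fell by 0.37. Top2a and Ccne1, which act in DNA decatenation and S-phase entry, fell by 0.28 and 0.23. In this list no gene rose more than Plk2 or Plk3. Both kinases were chosen with their rise in view, so nothing is read from this.

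Plk2 and Plk3 were also set beside other immediate-early genes, the class in which they were found. Of 20 tested, 11 were higher (55%, against 25.9% of all genes) and 4 lower (20%, against 25.1%), with a median of 0.19. Directions were split among the best-known members. Fos and Egr1, the classic serum-response genes, fell by 1.14 and 0.99 on the log2 scale. Fos had 856 ± 36.4 normalized counts in Control and 390.5 ± 38.3 in STZ (SD, n = 3 each), and Egr1 had 534 ± 12.1 and 269 ± 13.7. Myc fell by 0.33. Fosl1 (Fra-1) rose from 41.3 ± 12.6 to 232 ± 21.1 normalized counts (SD, n = 3 each), a log2 fold change of 2.46, the stress factor Atf3 rose by 1.71, and Ier5 rose by 0.99. Of the 20, only Fosl1 had a larger log2 fold change than Plk2, and 3 had a larger one than Plk3. This only places the kinases, which were chosen with their rise in view. The fold threshold was passed by 3 of the 20, and by 5 when Control replicate 1 was left out.

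Among 19 p53 target genes tested, 15 were higher (78.9%, against 25.9%) and 1 lower (5.26%, against 25.1%). The median was 1.30, and 12 passed the fold threshold. The study's own results had already singled out this list in part. The list is given to place the 2 kinases and is no independent evidence of its direction. Cdkn1a, Eda2r and Mdm2 had log2 fold changes of 2.49, 2.12 and 1.95, and Ddb2, which recognizes ultraviolet damage, fell by 0.53. Plk2, at 1.74, lay under 5 of the 19 and above 14, and Plk3, at 0.93, lay under 12 and above 7.

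**Figure D5:**
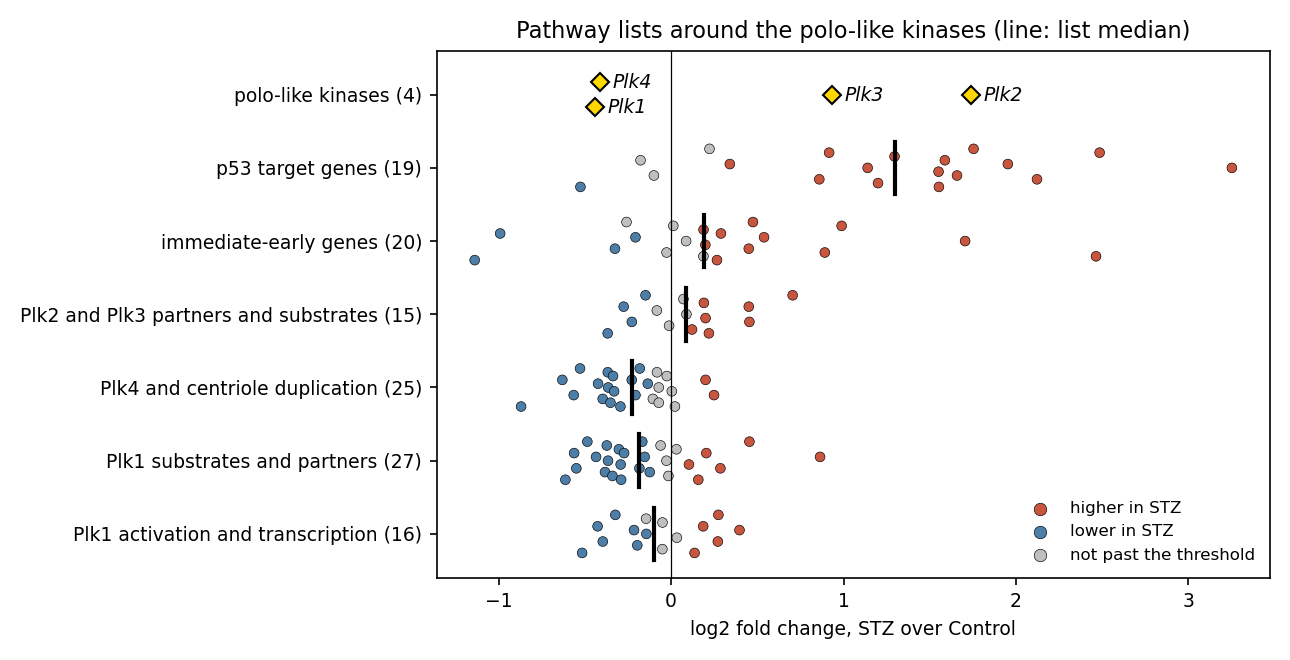
Log2 fold change (STZ over Control) of each gene in the 6 lists and of the 4 kinases (diamonds), 1 point per gene and a black line at each list's median, coloured by whether the gene was higher, lower or not past an adjusted p-value of 0.05. The centriole list lies mostly below 0 (16 of 25 lower). The p53 target genes span -0.53 to 3.25, with 18 of 19 above Plk1 and 18 of 19 above Plk4.

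The genes whose course over the 6 samples lay closest to each kinase were found by the root mean square distance between log2 CPM scaled by TMM, each gene centred on its own mean, among 9830 other genes with a symbol and 50 or more normalized counts on average. Closest to Plk1 were Mcm7, a subunit of the replicative helicase, at a distance of 0.00576, then Fh (fumarate hydratase) at 0.0189 and Trim28, a chromatin corepressor, at 0.0219. Closest to Plk2 were Hmox1, the heme oxygenase of the oxidative stress response, at 0.0203, Anxa8, an annexin, at 0.0643 and Btg2, an antiproliferative p53 target, at 0.0666. Closest to Plk3 were the uncharacterized AABR07044383.1 at 0.0415, Ccdc9b at 0.0441 and Ddit3 (CHOP), a stress transcription factor, at 0.0463. For Plk4 they were Adi1 of the methionine salvage pathway at 0.0251, Ythdc2, an RNA helicase, at 0.0252 and Hnrnpa2b1, an RNA-binding protein, at 0.0264. The 6 points fall into 2 treatment groups, so a close gene is foremost one with an STZ difference of like size.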

How the data were processed

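RNA of 6 samples of NRK-52E cells was sequenced from a stranded mRNA library as single-end reads. The authors aligned reads against Rnor6 with STAR 2.7.10a, assigned unique alignments to genes with featureCounts, and deposited the raw counts without normalization. Columns were matched to samples by title. Low counts were removed with filterByExpr, libraries were scaled by TMM, and the groups were compared by the quasi-likelihood test of edgeR 4.0.16 (R 4.3.3) over all genes, with Benjamini-Hochberg adjustment. Standard errors were derived from each log2 fold change and its F statistic. The fit was run on simulated counts with few changed genes and the same spread setting for all genes. That run does not check the calls made here.

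The members and lists were chosen with earlier results of these data known, and no set test or p-value over the members was computed. From each list, up to 3 rises and 3 falls were named, by log2 fold change among called genes averaging 50 or more normalized counts, and the 3 closest genes per member. Genes named otherwise are marked. A pseudocount of 0.5 CPM was used for the distances. Totals were 10430924 to 15191349 counts per sample, and the 131 to 166 reads of Plk3 per Control library limit its precision. An exact permutation test of 3 samples against 3 cannot reach a two-sided p under 0.1, and none was run. Alternatives were other filters, scalings and tests (DESeq2 1.42.0, limma-voom of limma 3.58.1), a replicate block, and leaving out each sample. Promoters were read from RefSeq (GRCr8), another build than that of the counts.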

Additional observations from a re-analysis of the deposited data

How the results depend on the processing

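The log2 fold changes of the 4 kinases kept their sign under all 14 alternatives. Plk1 ranged from -0.48 to -0.42, Plk2 from 1.70 to 1.77, Plk3 from 0.89 to 0.999 and Plk4 from -0.45 to -0.39. The value of Plk1 moved by more than the replicate SD of 0.03 with library size only, to -0.48, a setting that moved the median of all genes to -0.04. List counts stayed within 1.5 times in 250 of 252 outcomes. The exceptions came from leaving out a sample. The number of immediate-early genes past both thresholds, 3 with all samples, was 3 to 5, with 5 when Control replicate 1 was left out. The number of genes higher in the list of Plk1 activation and transcription, 5 with all samples, was 3 to 5, with 3 when Control replicate 2 was left out. The cause was not tested. The single genes kept direction and call in all 630 refits of 45 genes. Over all genes, 400 passed both thresholds, and 249 did when each sample had to hold 10 or more counts, where fewer genes were tested. When closeness was measured by Pearson correlation, 1 of the 3 closest genes was shared for Plk1 (Mcm7), Plk2 (Hmox1) and Plk3 (Ddit3), and 0 for Plk4. Levels per transcript length were not run.

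Control and STZ share replicate numbers. Deviations of same-numbered samples from their group means had correlations of 0.0303, -0.0245 and 0.128 over 9559 genes. They were under 0.1 for 2 of the 3 pairs. Samples with different numbers were not compared, so these values cannot decide whether the replicates were paired. Under the replicate block, the log2 fold changes of Plk1, Plk2, Plk3 and Plk4 were -0.44, 1.74, 0.94 and -0.41, and the block changed no call among the lists.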

Other observations

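Some genes that work beside the kinases had almost no reads where a relative, or a gene that acts with them, had many. These were picked out after their values were seen. Foxm1, the transcription factor that drives Plk1 and other late cell cycle genes, had 0 to 3 reads in Control and 1 to 4 in STZ, while Mybl2, which acts with it, had 1118 to 1449 and 1537 to 2000. Among the Cdc25 phosphatases, which polo-like kinases help to activate, Cdc25b had 4 to 6 reads in Control and 1 to 6 in STZ, Cdc25a 625 to 823 and 668 to 935, and Cdc25c 320 to 414 and 474 to 634. The same held between structural proteins that pair with each other and are not on the kinase lists. Krt8 had 11691 to 14950 reads in Control and 18562 to 24040 in STZ against 0 to 1 and 0 to 3 for Krt18, and Col1a1 had 315 to 414 and 307 to 396 against 0 to 2 and 0 to 1 for Col1a2. Foxm1 and Cdc25b did not pass the filter on low counts and were not tested. Whether the few reads of these genes reflect little RNA or how reads were assigned to genes was not tested.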
